A study of Mus musculus with 419 samples.

Results

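The nuclear genes that encode oxidative phosphorylation were followed through 19 mouse tissues. These are the genes for the subunits of respiratory complexes I to V and for somatic cytochrome c, and they were taken from the count table by symbol. Symbols of the form Nduf with a subunit letter a, b, c, s or v and a number, Cox4 to Cox8, Atp5, Uqcr and Sdha to Sdhd were kept and Cycs was added, while assembly factors of the Ndufaf type and 7 symbols holding -ps were left out. This gave 84 genes of 55487 in the table, made up of 35 for complex I, 4 for complex II, 8 for complex III, 20 for complex IV, 16 for complex V and Cycs. Ndufa4 and Ndufa4l2 were counted with complex IV, where their proteins are now placed, and Atp5s, coupling factor B, was counted with complex V.

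CBA/CaJ mice were energy-deficient (Deficient) or energy-sufficient (Control), as a REDs model (the syndrome of low energy availability in athletes), and tissues were taken at zeitgeber time 17 (ZT17) or 5 (ZT05), in hours from lights on. The labels give no age, diet composition or transgene, and all groups share the CBA/CaJ background. There were 419 poly(A) RNA libraries, of which 216 came from females (18 tissues) and 203 from males (17 tissues), with 3 libraries in each of 139 groups of tissue, sex, treatment and time and 2 in the male Control ZT05 group of the tibialis anterior tendon. The labels number the animals, so the libraries of different tissues come from the same mice: 12 females and 12 males numbered 31 to 62 form a first set, and 12 further males numbered 73 to 94 a second set. P-values therefore measure the spread between these animals within a tissue, and tissues are not independent of one another.

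Oxidative phosphorylation passes electrons from NADH through complex I, or from succinate through complex II, to complex III, then by cytochrome c to complex IV, which reduces oxygen. Complexes I, III and IV pump protons across the inner mitochondrial membrane, and complex V, the ATP synthase, uses the return flow to make ATP. Most subunits are nuclear genes, while a core set is encoded in mitochondrial DNA. Several complex IV subunits exist as a common form and a second form restricted to heart and muscle, lung or testis. Brown adipose tissue, heart and oxidative muscle are known for a high mitochondrial content, and in brown fat the proton flow is diverted to heat by Ucp1.

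Promoters of this gene family are known for sites of NRF1, GABPA, YY1 and estrogen-related receptors (ERR). RefSeq windows for GRCm38.p6, reaching from 250 bases before to 50 bases after each annotated gene start, were matched for 67 of the 84 genes and searched on both strands. The NRF1 letters CGCATGCGC stood in 9 of these 67 genes (13.4%) and in 1.95% of 27025 genes with a window. The YY1 letters AAGATGGCG stood in 7 genes (10.4%) against 1.64% of all genes, and the GABPA letters CCGGAAGT in 5 genes (7.46%) against 4.31%. The ERR letters TCAAGGTCA stood in 2 genes (2.99%) against 0.466%. The 3 windows printed here were chosen after values were seen, to show genes that fell in Deficient uterus and hold a motif. They run 5′ to 3′ along the gene, and capitals mark the motif. No 2 different motifs overlap in them. Cox6a1 encodes the common form of a small complex IV subunit and holds the NRF1 letters on both strands, overlapping each other, at chr5:115348909-115349208, minus strand. Atp5j encodes coupling factor 6 of the ATP synthase stalk, has 2 windows in the table, and holds the YY1 letters in the one at chr16:84834927-84835226, minus strand. Sdhd encodes a membrane anchor of complex II and holds the ERR letters in reverse orientation at chr9:50603800-50604099, minus strand.
Cox6a1: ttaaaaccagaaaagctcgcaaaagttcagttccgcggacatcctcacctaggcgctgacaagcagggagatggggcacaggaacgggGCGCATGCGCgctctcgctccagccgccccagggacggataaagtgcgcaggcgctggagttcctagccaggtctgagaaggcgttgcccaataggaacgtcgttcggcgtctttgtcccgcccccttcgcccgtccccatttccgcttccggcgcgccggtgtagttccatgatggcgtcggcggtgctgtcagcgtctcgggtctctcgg
Atp5j: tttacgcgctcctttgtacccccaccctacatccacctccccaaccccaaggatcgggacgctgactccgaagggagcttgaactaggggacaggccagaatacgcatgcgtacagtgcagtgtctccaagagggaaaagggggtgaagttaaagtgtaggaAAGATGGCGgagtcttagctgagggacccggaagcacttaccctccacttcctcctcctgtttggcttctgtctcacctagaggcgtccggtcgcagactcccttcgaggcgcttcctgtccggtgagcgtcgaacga
Sdhd: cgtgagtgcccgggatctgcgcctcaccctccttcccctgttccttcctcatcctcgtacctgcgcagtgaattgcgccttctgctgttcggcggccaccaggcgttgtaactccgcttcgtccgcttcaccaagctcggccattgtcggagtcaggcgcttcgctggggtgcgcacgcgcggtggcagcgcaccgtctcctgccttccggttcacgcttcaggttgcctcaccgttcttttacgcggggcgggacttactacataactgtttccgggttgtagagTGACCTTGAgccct
In these letters the NRF1 matches of Cox6a1 began 162 bases before the gene start, the YY1 match of Atp5j began 88 bases before it and the ERR match of Sdhd lay 36 bases after it. A match describes the letters only, since no binding was measured here.

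Library totals ran from 5777450 to 53598697 counts, and levels are given as CPM, counts scaled to the library total after the 37 mitochondrially encoded genes were removed, which left 474811 to 49664252 counts a library. The median sum of the markers written for each labelled tissue lay far above the median of the remaining libraries. The exception was ovary, at 8.27 against 6.54 CPM. Ranges of single libraries could still overlap those of other tissues. Of the 12 libraries labelled ovary, 7 had no count of Cyp19a1, the aromatase of granulosa cells, or of Fshr, the follicle-stimulating hormone receptor. The summed granulosa and luteal markers of these 7 lay at 3.95 to 9.26 CPM, against 48.4 to 1945 CPM in the other 5, and the 7 comprised 4 Deficient and 3 Control libraries. Markers of uterine stroma and epithelium stood at 482 to 776 CPM in these 7 and 116 to 670 CPM in the other 5, against 506 to 1161 CPM in uterus. Adipocyte markers ran from 45.6 to 2995 CPM in Deficient and 509 to 1678 CPM in Control libraries labelled ovary. The part of such tissue in their response was not tested. All 12 are called libraries labelled ovary below, and call counts, medians and named genes of the response are also given with either kind left out. The summed level of the 84 genes in Control libraries was 9355 to 9822 CPM where Cyp19a1 was counted and 8917 to 10312 CPM where it was not. By composition 7 female and 62 male libraries stood apart from their tissue. In 49 of them, all male, over 50% of the counts were mitochondrially encoded, and others held many counts of rRNA-like genes or markers of another tissue. Of the male tissues, adrenal gland, kidney, soleus, extensor digitorum longus (EDL) and its tendon, and tibialis anterior and its tendon came from the second set alone. Among these 7 tissues 1 male library stood apart, a Deficient ZT17 adrenal library with hepatocyte markers. Male spleen, quadriceps, gastrocnemius, gastrocnemius tendon and brown adipose tissue mixed both sets, unevenly over the groups of treatment and time. Set is therefore partly confounded with treatment and time in these tissues.

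The summed level of the 84 genes differed strongly between tissues. In Control females it was highest in brown adipose tissue, at 56756, 62313 and 70164 CPM for the lowest, median and highest of 6 libraries, and in heart, at 49653, 52309 and 60118 CPM. The hindlimb muscles and the muscle-bearing tendon samples came next, from a median of 36107 CPM in tibialis anterior to 25140 CPM in the EDL tendon, and kidney stood at 24725 CPM. Below these came adrenal gland at 16302 CPM, liver at 11615 CPM, the libraries labelled ovary at 9358 CPM and uterus at 9138 CPM. Lung had 7977 CPM, Control testis 7927 CPM, spleen 6431 CPM and pituitary 5387 CPM. Neighbours in this order overlapped in 15 of 18 pairs, so that most single steps are within the spread between libraries while the ends are far apart. A sum in CPM counts longer transcripts more heavily and is a share of the nuclear reads, not an amount of RNA per cell.

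**Figure D1:**
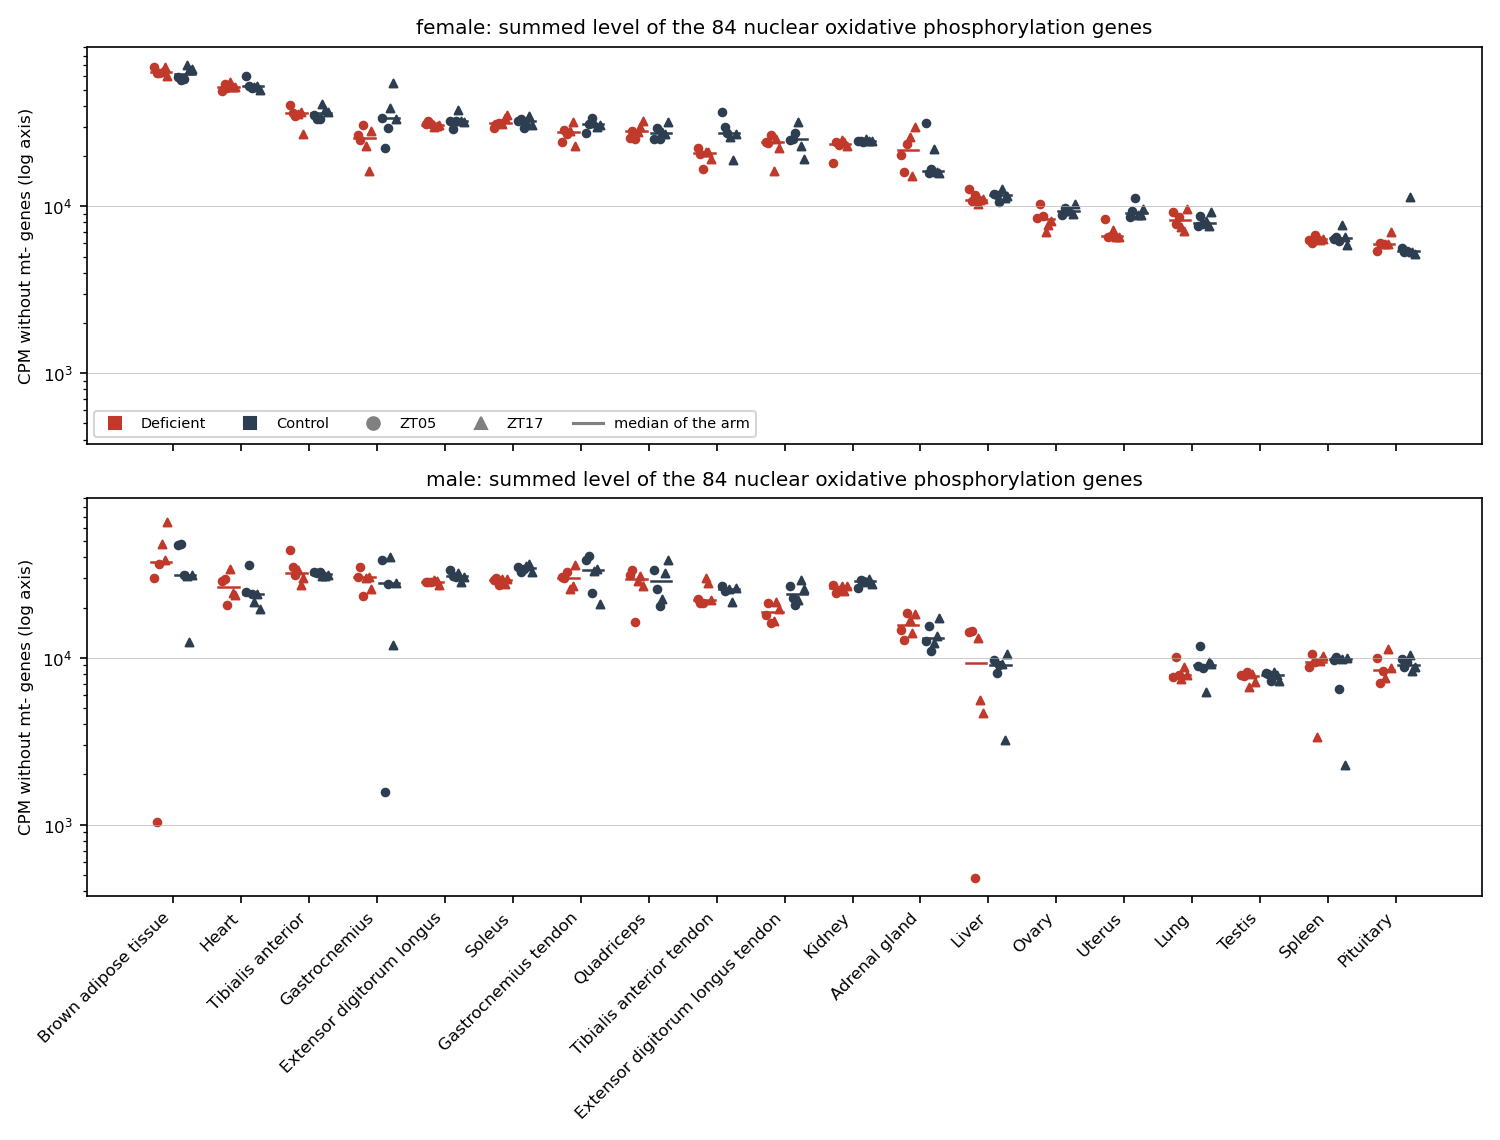
Summed level of the 84 genes in each tissue (CPM, log axis), 1 point a library, in a panel for each sex, coloured by treatment, with circles for ZT05, triangles for ZT17 and bars at the medians. In females the medians of brown adipose tissue and heart lie above those of all other tissues and the medians of spleen and pituitary are the lowest, and a few male libraries of brown adipose tissue, liver and gastrocnemius fall far below their groups.

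In Control males the order differed, with the highest median in soleus at 34410 CPM, against 31478 CPM in brown adipose tissue and 24198 CPM in heart. Male libraries of some tissues fell far below the rest. The lowest was a Deficient ZT05 liver library (replicate 3) at 482 CPM, with 93.3% of its nuclear counts on rRNA-like genes, and a Deficient ZT05 brown adipose library (replicate 2) at 1036 CPM, with 92.8%. A Control ZT05 gastrocnemius library (replicate 2) at 1573 CPM held 86.4%. Control hearts of males lay at 19684, 24198 and 35860 CPM, against 49653 to 60118 CPM in Control hearts of females, and the cardiomyocyte markers were also lower there, at 6301 to 17422 CPM in all male heart libraries and 34311 to 54094 CPM in all female ones. The part of library composition in these sex differences of level was not tested.

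The make-up of complex IV followed the tissue through its paired subunits, compared per kilobase of exon within each library and given as medians of 6 Control libraries. Cox6a2, the heart and muscle form of subunit 6a, made 93.7% of the Cox6a1 and Cox6a2 total in female heart, ranging from 92.8% to 95.8%, and 0.203% in brown adipose tissue. Cox7a1 and Cox8b, the muscle forms of subunits 7a and 8, were instead high in brown adipose tissue as well, where Cox7a1 made 65.0% (63.2% to 66.7%) and Cox8b 71.6% (69.3% to 75.2%). In heart Cox7a1 made 72.5% and Cox8b 88.2%, and in liver they made 1.06% and 0% of their pairs. For Cox6a2 the highest brown adipose library, at 1.60%, lay far below the lowest heart library.

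Testis carried its own set. Cox6b2 made 91.0% of its pair there (90.4% to 91.7%), Cox7b2 97.4% (97.0% to 97.8%) and Cox8c 94.7% (93.0% to 95.1%) of the Cox8 total, while Cox8c was listed at 0% in heart, liver, spleen and brown adipose tissue. Ndufa4l2, a paralogue of Ndufa4 known to be induced by low oxygen, made 53.7% of that pair in testis and 11.1% in lung, against 0.227% in liver. Cox4i2, the lung form of subunit 4, made 24.8% of its pair in lung (23.3% to 28.4%), against 1.35% in heart and 0.0998% in liver. These isoform shares are per kilobase, so a read mapped to a near-identical copy or pseudogene would still move them.

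**Figure D2:**
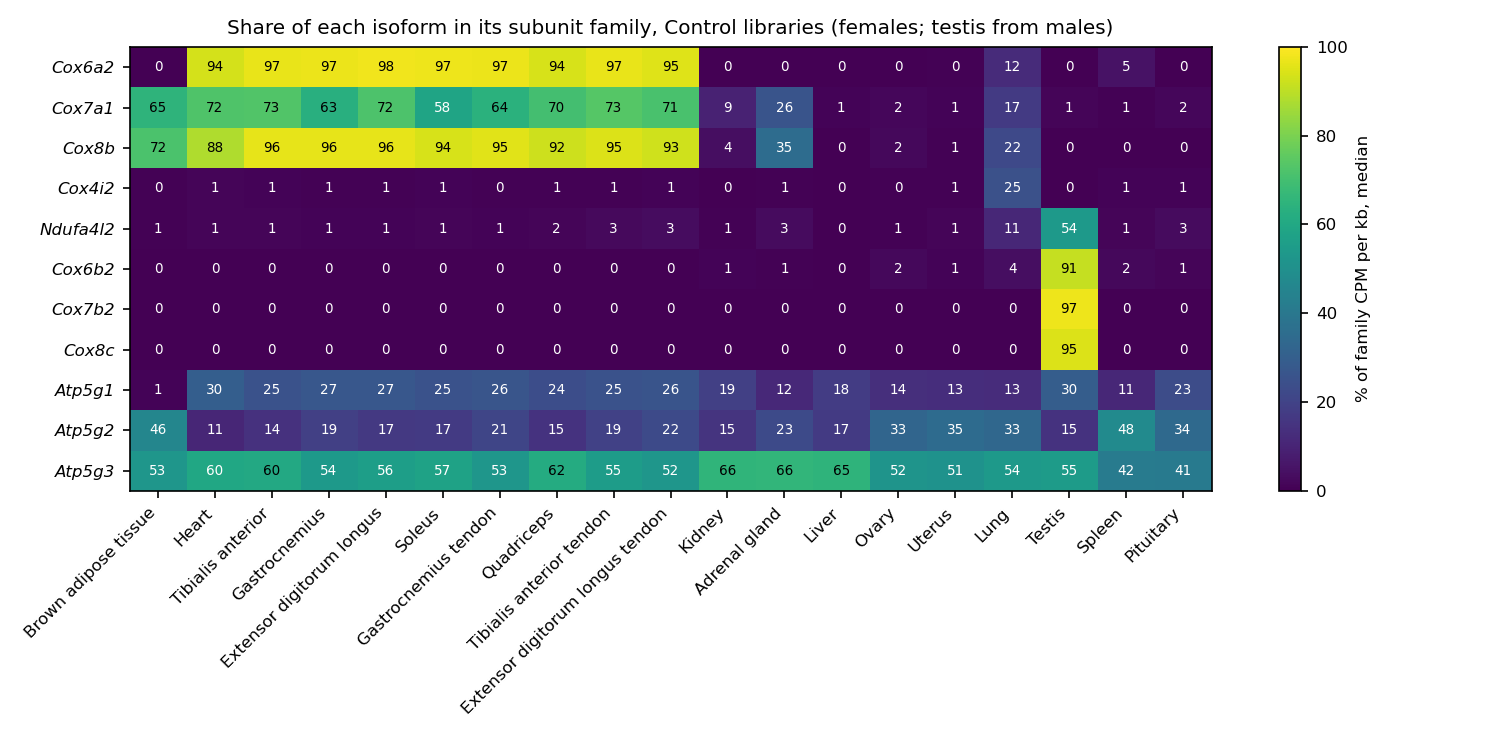
Share of each tissue-restricted isoform among the genes of its subunit (percent, per kilobase of exon), as the median over 6 Control libraries of each tissue (females, or males for testis). Cox6a2 is high in heart, muscles and tendons, Cox7a1 and Cox8b also in brown adipose tissue, and Cox6b2, Cox7b2 and Cox8c in testis.

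Among the Atp5g genes, which encode the same mature c subunit of the ATP synthase ring, Atp5g1 was low in brown adipose tissue. It made 1.0% of the Atp5g total there (0.757% to 1.77%), against 29.8% in heart, 29.6% in testis, 17.8% in liver, 12.6% in lung and 11.03% in spleen. Atp5g2 and Atp5g3 made up the rest in brown adipose tissue at 46.1% and 52.7%. Complex V as a whole took the lowest shares of the per-kilobase sum in testis, at a median of 13.5% (13.1% to 13.9%), and brown adipose tissue, at 16.2% (15.1% to 17.5%), and the highest in kidney, at 26.2% (26.0% to 27.2%). The brown adipose range lay below the kidney range with no overlap.

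Adrenal gland libraries held brown fat markers in varying amounts. The Control ZT05 female library with the highest sum (replicate 1, 31742 CPM) had 1619 CPM of Ucp1, the uncoupling protein of brown fat, and 384 CPM of Cox8b. Replicate 2 of the same group had the second highest Ucp1 of the female libraries, 715 CPM, with 60.9 CPM of Cox8b and a sum of 15930 CPM. Among Deficient ZT17 females, replicate 3 had a sum of 29986 CPM with 298 CPM of Ucp1 and 177 CPM of Cox8b, while replicate 1 had 26172 CPM with 71.7 CPM of Ucp1 and 42.6 CPM of Cox8b. The part of attached fat in the adrenal sums was not tested.

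Energy deficiency was compared within each tissue and sex as Deficient minus Control, averaged over the collection times, by edgeR's quasi-likelihood test with Benjamini-Hochberg adjustment over all genes tested in the tissue. A gene is said to have fallen or risen where its adjusted p was under 0.05, and fold changes are on TMM-scaled library sizes, so they can differ slightly from a ratio of CPM. Counts of genes above or below 0, and counts at an unadjusted p under 0.05, are not calls. They are given below without the share of all genes, so as printed they do not show whether these genes moved more than all genes did. Of 1465 pairs of gene and tissue tested in females, 169 fell (11.5%) and 4 rose (0.273%), against 7.42% and 6.83% of all genes. In males 158 of 1379 pairs fell (11.5%) and 3 rose (0.218%), against 2.41% and 2.33% of all genes. The falls were spread over 15 female tissues with a call but concentrated in a few, with 68 of the 169 in uterus. Of the 158 male falls, 157 came from kidney, soleus, EDL and EDL tendon. These 4 male tissues came from the second set alone, as did adrenal gland, tibialis anterior and its tendon, where no gene fell. All but 1 of the 62 male libraries that stood apart came from other tissues. The dispersion (spread between libraries) fitted to males was 0.3198 to 1.17 times that of females in the second-set tissues. It was 1.199 to 7.31 times in the others with both sexes. The part of set and spread in this pattern was not tested. In bulk RNA, fewer cells of a type and less RNA per cell cannot be told apart. Where alternatives are named below, both sexes in 1 fit means an edgeR fit that shares its spread between females and males, and leaving out a replicate number removes 1 library from each of the 4 groups of a tissue and sex.

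Markers of erythroid cells fell in many tissues. They fell in 39 of 59 female and 12 of 55 male pairs of marker and tissue, fibroblast markers in 44 of 90 and 16 of 83, and macrophage markers in 28 of 72 and 3 of 66. Of the erythroid cells' markers tested, 3 of 3 fell in female EDL, gastrocnemius, tibialis anterior, quadriceps, soleus, liver and the libraries labelled ovary, 2 of 3 in uterus, gastrocnemius tendon and EDL tendon of females, and 3 of 4 in kidney and lung of females. In males 3 of 4 fell in kidney, 3 of 3 in liver, 2 of 3 in EDL and 4 of 4 in spleen, and none in soleus or the EDL tendon. The summed erythroid cells' markers were 2.15 to 7.38 CPM in Deficient and 6.49 to 19.3 CPM in Control uteri, with Slc4a1 at 0 in every Deficient uterus. In male kidney they were 141 to 393 CPM in Deficient and 353 to 553 CPM in Control libraries. They also fell where none of the 84 genes was called, in female brown adipose tissue (2 of 3) and male spleen. Their part in the falls of the respiratory genes was not tested.

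**Figure D3:**
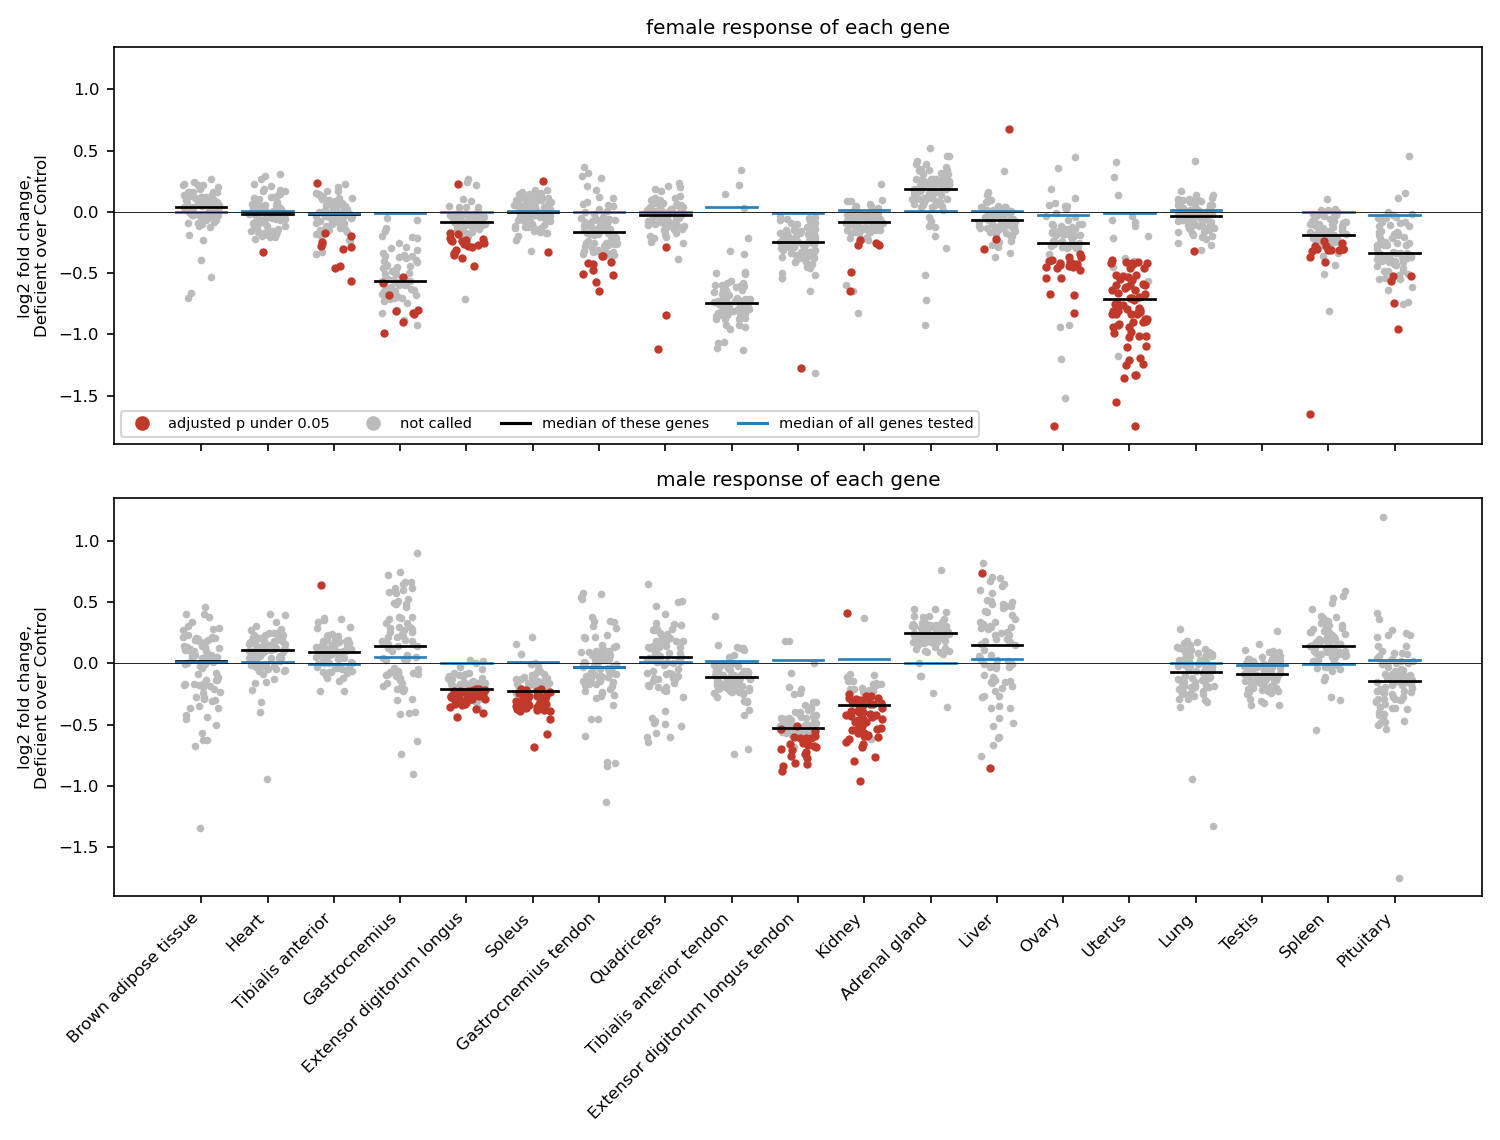
Log2 fold change, Deficient over Control, of each gene in every tissue, females and males in separate panels, with red points for adjusted p under 0.05, grey points for the rest, black bars at the medians of these genes and blue bars at the medians of all genes tested. The lowest medians are those of the female tibialis anterior tendon (-0.75), uterus (-0.71), female gastrocnemius (-0.57), male EDL tendon (-0.52), male kidney (-0.34) and female pituitary (-0.34), the adrenal gland lies above 0, and the most extreme values (2 female, 1 male) are drawn at the edge of the axis.

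Uterus had the broadest fall. The summed level was 6509, 6615 and 8413 CPM (lowest, median and highest of 6) in Deficient uteri, against 8601, 9138 and 11172 CPM in Control uteri, with no overlap. Of 82 genes tested, 68 fell and none rose (median log2 change -0.71), in a tissue where 23.3% of all genes fell. By complex, 29 of 35 genes fell in complex I, 3 of 4 in II, 8 of 8 in III, 12 of 18 in IV, 15 of 16 in V, and Cycs fell. Taken at each time alone, 52 fell at ZT05 and 51 at ZT17, against 11.2% and 16.8% of all genes.

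Leaving aside Cox6a2, which lay under 1 CPM, the largest falls in uterus were in complex IV and cytochrome c. Cox5a, a nuclear-encoded subunit of complex IV (chr9:57521274-57532426, GRCm38), had 37.55, 43.8 and 82.8 CPM in Deficient uteri, against 103, 112 and 172 CPM in Control uteri. The groups did not overlap, and the log2 change was -1.55 ± 0.20 (SE; edgeR adjusted p = 0.00028). Ndufa4 (chr6:11900292-11907497) had 113, 129 and 185 CPM in Deficient uteri, against 235, 275 and 413 CPM in Control uteri, again with no overlap (-1.35 ± 0.18, adjusted p = 0.000319). Cycs (chr6:50562563-50566538) had 16, 24.2 and 49.9 CPM in Deficient uteri, against 42.3, 52.5 and 84.6 CPM in Control uteri. The Cycs ranges overlapped through 1 high Deficient library (-1.33 ± 0.19, adjusted p = 0.000414). Cox7b, another complex IV subunit, had 77.3, 93.2 and 121 CPM in Deficient uteri, against 133, 147 and 203 CPM in Control uteri (-0.98 ± 0.16). Its groups did not overlap.

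Examples from the other complexes had smaller falls in uterus. Uqcrfs1, the Rieske iron-sulfur protein of complex III, had 58.6, 66.9 and 80.5 CPM in Deficient uteri, against 90.1, 94.0 and 126 CPM in Control uteri (-0.78 ± 0.13). Atp5e, the epsilon subunit of the ATP synthase, had 57.8, 65.8 and 85.5 CPM in Deficient uteri, against 100.3, 104 and 153 CPM in Control uteri (-0.94 ± 0.14). Ndufb3, a supernumerary complex I subunit, had 31.9, 38.1 and 41.5 CPM in Deficient uteri, against 47.6, 51.8 and 83.6 CPM in Control uteri (-0.84 ± 0.15). None of these 3 overlapped between the groups. The promoters printed above belong to genes of the same kind, since Cox6a1 fell by 1.02, Sdhd by 0.69 and Atp5j by 0.59 on the log2 scale.

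Complex II was split in uterus. Sdhc, a membrane anchor, had 60.15, 65.5 and 85.0 CPM in Deficient uteri, against 92.5, 97.7 and 116 CPM in Control uteri, with no overlap (-0.83 ± 0.13, adjusted p = 0.000617). Sdha, the flavoprotein subunit (chr13:74322254-74350280), had 242, 261 and 279 CPM in Deficient uteri, against 212, 245 and 272 CPM in Control uteri. The Sdha ranges overlapped almost fully and the change was -0.12 ± 0.11 (adjusted p = 0.41). Ndufs1, the largest core subunit of complex I, likewise did not pass the test (-0.20 ± 0.11, adjusted p = 0.14), with 92.0, 105 and 112 CPM in Deficient uteri and 85.5, 103 and 116 CPM in Control uteri. The 14 genes that did not pass also held isoforms at trace level, such as Cox4i2 at 0.933 to 2.66 CPM in Deficient and 0.573 to 1.90 CPM in Control uteri (0.41 ± 0.36). Leaving out any 1 uterus library gave 60 to 69 falls.

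Other cell type markers moved with the uterine fall. All 4 macrophage markers fell, with a sum of 99.0 to 205 CPM in Deficient uteri against 239 to 394 CPM in Control uteri, and 3 of 5 fibroblast markers fell while 1 rose. All 4 endothelial markers rose, with 276 to 498 CPM in Deficient uteri against 149 to 273 CPM in Control uteri, and 2 of 4 markers of uterine stroma and epithelium rose, with 982 to 1161 CPM against 506 to 1023 CPM. Their part in the fall of these genes was not tested.

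Male kidney came next. The summed level was 24374, 26191 and 27305 CPM in Deficient male kidneys, against 26328, 28784 and 29664 CPM in Control male kidneys, and these ranges overlapped. Of 82 genes tested, 60 fell and 1 rose (median -0.34), in a tissue where 18.5% of all genes fell and 19.8% rose. The falls covered 29 of 35 genes of complex I, 2 of 4 of II, 7 of 8 of III, 9 of 18 of IV and 12 of 16 of V, and Cycs. At ZT05 alone 13 genes fell and at ZT17 alone 47, against 6.23% and 13.5% of all genes, and edgeR called no difference between the times, with 0 at an unadjusted p under 0.05. Without replicate number 2 the calls numbered 22 and without number 3 they numbered 38.

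Ndufa13 (chr8:69894180-69902558), a complex I subunit also known as GRIM-19, had 274, 306 and 359 CPM in Deficient male kidneys, against 410, 449 and 553 CPM in Control male kidneys. The groups did not overlap (-0.80 ± 0.12, adjusted p = 0.000387). Uqcrq (chr11:53427922-53430831), a small subunit of complex III, had 131, 143 and 160 CPM in Deficient male kidneys, against 172, 205 and 275 CPM in Control male kidneys, with no overlap (-0.76 ± 0.12). Cycs had 173, 259 and 311 CPM in Deficient male kidneys, against 357, 404 and 533 CPM in Control male kidneys, with no overlap (-0.96 ± 0.16, adjusted p = 0.000757). Atp5s ran the other way, at 10.3, 13.9 and 16.9 CPM in Deficient male kidneys against 6.45, 9.27 and 11.1 CPM in Control male kidneys. It was the only riser (0.41 ± 0.14, adjusted p = 0.028), and its ranges overlapped.

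Female kidney had fewer calls. The sum was 18259, 23696 and 24810 CPM in Deficient female kidneys, against 24272, 24725 and 25154 CPM in Control female kidneys. Of 82 genes 6 fell (median -0.08), against 5.91% of all genes, and leaving out 1 library gave 1 to 8 falls, with 1 fall after removal of Control ZT17 replicate 1 or 2 or Deficient ZT17 replicate 3, 2 falls without Control ZT05 replicate 1, Control ZT17 replicate 3 or Deficient ZT05 replicate 3, and 3 without Control ZT05 replicate 3. The count was 3 with both sexes in 1 fit and 0 without replicate number 1 or 3. Of the rRNA-like genes, CT010467.1 rose (3.22 ± 0.96), and its part was not tested. Ndufa13 had 172, 183 and 247 CPM in Deficient female kidneys, against 150, 204 and 227 CPM in Control female kidneys (-0.04 ± 0.08, adjusted p = 0.80). Cycs fell in both sexes, with 141, 188 and 245 CPM in Deficient and 207, 230 and 262 CPM in Control female kidneys (-0.27 ± 0.08, adjusted p = 0.041).

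The female response minus the male response was tested in the 16 tissues with both sexes. It was called for 26 genes in all, every one in kidney and every one among the genes that fell in males, of 82 tested there, against 7.01% of all genes with a positive difference. The largest were Ndufa13, at 0.77 ± 0.15 (edgeR adjusted p = 0.0026), and Uqcrq, at 0.74 ± 0.18. Ndufv3, a small complex I subunit, differed by 0.60 ± 0.13, with 0.00 in females and -0.59 in males. Leaving out male Deficient ZT17 replicate 2 gave 16 calls and male Control ZT17 replicate 2 gave 17. Leaving out a replicate number gave 1 to 14. The male kidneys came from the second set and the female kidneys from the first, so sex and set cannot be told apart.

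**Figure D4:**
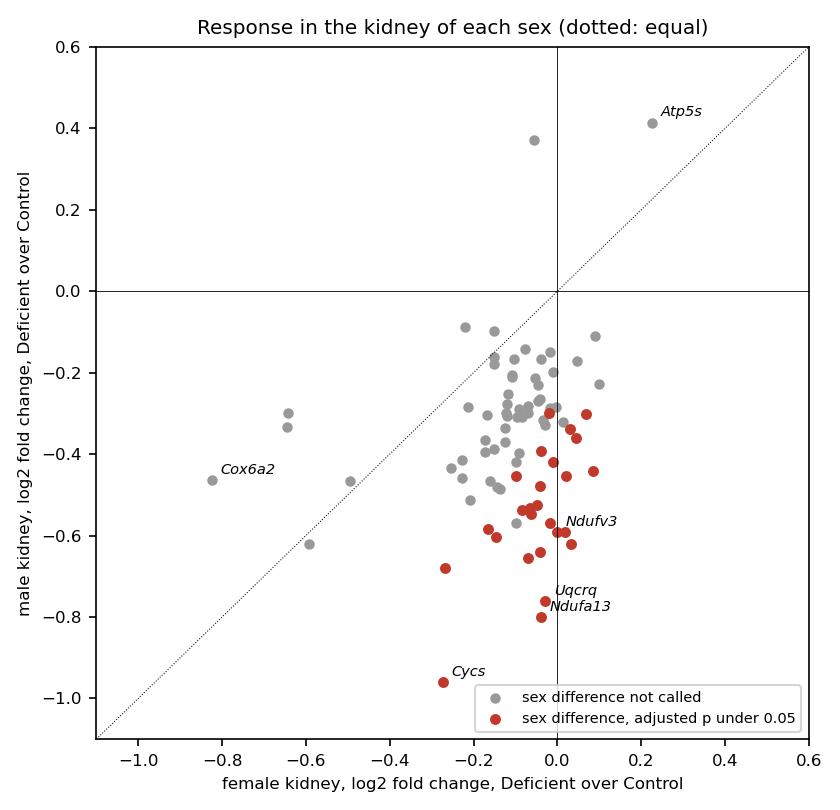
Log2 fold change, Deficient over Control, of each of 82 genes in kidney, males on the vertical and females on the horizontal axis, with red points for the 26 genes whose sex difference had an adjusted p under 0.05. In 74 of the 82 genes the male value is the lower one, below the line of equal change.

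Markers of the kidney tubule fell in both sexes. In males 2 of 4 fell, with a sum of 16424 to 32900 CPM in Deficient against 46840 to 62978 CPM in Control kidneys, and in females 2 of 4 fell, at 9923 to 14960 CPM against 20140 to 24039 CPM. Most of this sum was Kap, the androgen-regulated protein of the proximal tubule, with 8571 to 24307 CPM in Deficient and 36644 to 54028 CPM in Control male kidneys and 264 to 2236 CPM in Deficient and 6571 to 10478 CPM in Control female kidneys. Macrophage markers fell in males as well (3 of 4), at 45.5 to 76.7 CPM in Deficient against 78.4 to 117 CPM in Control kidneys. The part of these cells in the male fall was not tested.

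Soleus, the slow hindlimb muscle, separated the arms in males. The sum was 27116, 29354 and 30116 CPM in Deficient male soleus, against 32547, 34410 and 36531 CPM in Control male soleus, with no overlap. Of 35 comparisons of a tissue and sex, soleus of males and uterus alone had sums that did not overlap. In male soleus 39 of 81 genes fell and none rose (median -0.23), against 6.05% of all genes. Complex II fell whole (4 of 4), with 5 of 8 genes of III, 16 of 35 of I, 7 of 17 of IV, 6 of 16 of V and Cycs.

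Cox7a1 (chr7:30184144-30186078), the muscle form of subunit 7a, led the male soleus with 174, 182 and 194 CPM in Deficient muscles, against 265, 290 and 345 CPM in Control muscles. The groups did not overlap (-0.68 ± 0.07, adjusted p = 0.000406). Cycs had 204, 224 and 254 CPM in Deficient male soleus, against 320, 341 and 373 CPM in Control male soleus (-0.58 ± 0.07), and Uqcrfs1 had 394, 429 and 450 CPM against 561, 579 and 656 CPM (-0.46 ± 0.07). Neither overlapped. Ndufs1 had 482, 539 and 555 CPM in Deficient male soleus, against 626, 692 and 728 CPM in Control male soleus (-0.36 ± 0.06), also apart. The other muscle isoforms did not pass: Cox6a2 had 670, 1030 and 1134 CPM in Deficient and 702, 843 and 980 CPM in Control male soleus (0.21 ± 0.13, adjusted p = 0.30), and Cox8b changed by -0.17 ± 0.09 (adjusted p = 0.24).

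In male soleus the slow fibre markers summed to 59660 to 68590 CPM in Deficient and 53430 to 65270 CPM in Control muscles (1 of 6 rose), while 3 of 5 tendon cell markers and 2 of 5 fibroblast markers fell, and their part was not tested. Leaving out Control ZT05 replicate 1 gave 23 falls, and leaving out any other 27 to 44. Without replicate numbers 1 and 2 in turn the count was 3 and 14. Female soleus had 1 fall and 1 rise of 82 (median 0.00), while 8.53% of all genes fell and 7.45% rose. The fall was Cox6a1, at 15.5, 16.8 and 19.98 CPM in Deficient and 20.1, 21.7 and 25.5 CPM in Control female soleus, which did not overlap (-0.33 ± 0.08), and the rise Atp5g2 (0.25 ± 0.08). The sex difference was called for no soleus gene by edgeR, with 42 at an unadjusted p under 0.05.

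The EDL, a fast hindlimb muscle, fell in both sexes. In males 35 of 81 genes fell and none rose (median -0.21), against 6.12% of all genes, with sums of 27105, 28557 and 29122 CPM in Deficient and 28365, 30768 and 33510 CPM in Control muscles. In females 18 fell and 1 rose of 82 (median -0.08), against 15.1% and 15.5% of all genes, with sums of 29940, 30790 and 32562 CPM in Deficient and 29216, 32516 and 37584 CPM in Control muscles. The genes that fell in both sexes numbered 17, which is 94.4% of the female and 48.6% of the male list. The share of all genes that fell in both sexes is not given, so this overlap has no background. The 17 spanned all complexes, with Cycs, Cox7a1, Ndufc1, Sdhc, Sdhd, Uqcrc2 and Atp5j among them. The sex difference was called for none by edgeR (11 at an unadjusted p under 0.05).

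Cox7a1 had 251, 271 and 289 CPM in Deficient male EDL, against 302, 345 and 385 CPM in Control male EDL, with no overlap (-0.40 ± 0.06). In females it had 266, 299 and 331 CPM in Deficient EDL, against 307, 361 and 409 CPM in Control EDL, and the ranges overlapped (-0.28 ± 0.07). Ndufc1, a complex I subunit, had 80.3, 98.4 and 106 CPM in Deficient against 106, 126 and 142 CPM in Control male EDL (-0.44 ± 0.08), and in females it fell by 0.38 on the log2 scale. Atp5g2 went against the rest in female EDL, at 128, 144 and 167 CPM in Deficient and 115, 121 and 137 CPM in Control muscles (0.23 ± 0.06).

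The EDL counts rested on few libraries. In males, leaving out Control ZT17 replicate 1 gave 11 falls, Deficient ZT17 replicate 3 gave 13, Control ZT05 replicate 1 gave 20 and Deficient ZT17 replicate 2 gave 23. In females, leaving out Control ZT05 replicate 1 gave 12 calls. Leaving out replicate numbers 1 and 3 in turn gave 2 and 3 calls in males and 5 and 7 in females. Tested at each time alone, female EDL had 18 falls at ZT17 (8.48% of all genes) and 0 at ZT05, and male EDL had 1 at ZT17 (0.917% of all genes) and 11 at ZT05 (2.71%). The difference between the times was called by edgeR for no EDL gene of either sex, with 2 in females and 1 in males at an unadjusted p under 0.05. Fibroblast markers also fell in EDL, 4 of 5 in females and 3 of 5 in males, and skeletal fibre markers summed to 144200 to 164000 CPM in Deficient and 161600 to 175000 CPM in Control male EDL (3 of 8 fell), and their part was not tested.

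In the tendon samples the summed skeletal muscle fibre markers overlapped the range of the hindlimb muscles. In the male EDL tendon 23 of 81 genes fell (median -0.52), against 2.94% of all genes, with sums of 16121, 18695 and 21599 CPM in Deficient and 20643, 24189 and 29385 CPM in Control tendons. Ndufs1 had 192, 209 and 259 CPM in Deficient male EDL tendons, against 273, 361 and 418 CPM in Control ones, with no overlap (-0.88 ± 0.16). Cycs had 115, 136 and 150 CPM in Deficient male EDL tendons, against 154, 208 and 302 CPM in Control ones, with no overlap (-0.84 ± 0.17). Cox7a1 fell by 0.82 on the log2 scale without overlap. Skeletal fibre markers moved the same way, with 85500 to 114600 CPM in Deficient and 98250 to 147600 CPM in Control tendons (2 of 8 fell), and their part was not tested.

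The EDL tendon count hung on single libraries. It was 61 without Control ZT05 replicate 3 and 45 without Control ZT17 replicate 1. It was 2 without Control ZT05 replicate 1 or 2, Deficient ZT05 replicate 1, or Deficient ZT17 replicate 1 or 3, 3 without Control ZT17 replicate 3 or Deficient ZT05 replicate 3, 4 without Control ZT17 replicate 2 and 5 without Deficient ZT17 replicate 2. It was 1 with both sexes in 1 fit, 61 by DESeq2, 58 with no filter on low counts, and 0 to 2 without a replicate number.

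The female tibialis anterior tendon had none of its 82 genes called by edgeR (median -0.75), against 0.35% of all genes falling, although 73 had an unadjusted p under 0.05, DESeq2 called 46 and edgeR with both sexes in 1 fit called 59. Cycs had 125, 165 and 196 CPM in Deficient and 175, 295 and 433 CPM in Control tendons (-1.13 ± 0.27, adjusted p = 0.08), and the ranges overlapped. Without Control ZT05 replicate 3 the count was 50 and without Control ZT17 replicate 2 it was 61. Skeletal fibre markers summed to 70600 to 120400 CPM in Deficient and 66530 to 169900 CPM in Control tendons.

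In the female gastrocnemius tendon 10 of 82 genes fell and none rose (median -0.17), against 8.58% of all genes. Cycs had 198, 267 and 288 CPM in Deficient tendons, against 365, 416 and 429 CPM in Control tendons (-0.65 ± 0.12), and Atp5j had 333, 429 and 481 CPM against 550, 629 and 718 CPM (-0.57 ± 0.12). Neither overlapped. Leaving out 1 library gave 3 to 15 falls, with 3 to 6 without each of Control ZT05 replicates 2 and 3, the Control ZT17 libraries and Deficient ZT05 replicates 1 and 3. The count was 0 with both sexes in 1 fit and 1 to 4 without a replicate number. Fibroblast markers (3 of 5) and tendon cell markers (4 of 5) fell in these samples too, and their part was not tested.

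Female gastrocnemius had few calls when the times were averaged. In that test 9 of 81 genes fell, against 5.62% of all genes, and the median was -0.57, with all 81 below 0. At ZT17 alone 61 fell, against 6.21% of all genes (median -1.15), and at ZT05 none did (median -0.02, 1 gene at an unadjusted p under 0.05). The test of the difference between the times called no gene by edgeR, with 65 at an unadjusted p under 0.05. The sums at ZT17 were 16160, 22996 and 28370 CPM in Deficient muscles, against 33248, 38961 and 55013 CPM in Control muscles, and the lowest of these Deficient libraries (replicate 2) held 36.1% rRNA-like counts. Averaged over the times, the count was 52 without Control ZT17 replicate 3, 25 without Control ZT17 replicate 2 and 18 without Control ZT17 replicate 1, and 0 to 5 without any other library. It was 0 with both sexes in 1 fit and without replicate number 1 or 3, 4 without the libraries that stood apart, 46 by DESeq2 and 52 with no filter on low counts.

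Cox7a1 had 108, 176 and 229 CPM in Deficient and 162, 294 and 696 CPM in Control female gastrocnemius (-0.99 ± 0.25, adjusted p = 0.028), and these overlapped. Slow fibre markers summed to 3568 to 7208 CPM in Deficient and 4472 to 10870 CPM in Control gastrocnemius (1 of 6 fell), 3 of 5 fibroblast markers fell, and their part was not tested. Male gastrocnemius gave no call (median 0.15, 1 gene at an unadjusted p under 0.05).

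Tibialis anterior and quadriceps had few calls. In female tibialis anterior 9 of 81 genes fell and Atp5l, a membrane subunit of the ATP synthase, rose (median -0.02), while 17% of all genes fell and 15.8% rose. Uqcrq had 83.6, 141 and 195 CPM in Deficient and 158, 215 and 268 CPM in Control muscles (-0.57 ± 0.16), with overlap. All 5 fibroblast and all 4 macrophage markers fell there too. The 3 rRNA-like genes rose, Gm15564 by 3.43 ± 1.11, CT010467.1 by 3.35 ± 0.99 and Lars2 by 3.07 ± 0.93 on the log2 scale, and the part of these changes was not tested. The count was 22 without Deficient ZT17 replicate 2 and 5 without Control ZT05 replicate 1, Control ZT17 replicate 2, or Deficient ZT17 replicate 1 or 3. It was 5 without the libraries that stood apart, 3 with both sexes in 1 fit, 17 by DESeq2 and 0 without replicate number 1 or 3. In male tibialis anterior 1 of 81 passed: Cox6a2 rose, with 489, 559 and 1171 CPM in Deficient and 344, 417 and 518 CPM in Control muscles (0.64 ± 0.18, adjusted p = 0.041). In that muscle 4.36% of all genes rose. Female quadriceps had 3 falls of 82, Ndufc1, Cox6a1 and Cox6b2, against 9.58% of all genes. The count was 1 without Control ZT05 replicate 1 or 2, Control ZT17 replicate 1 or 2, or Deficient ZT05 replicate 1, and 0 without Control ZT17 replicate 3, Deficient ZT05 replicate 2 or 3, or Deficient ZT17 replicate 1. It was 0 with both sexes in 1 fit and 1 by DESeq2 or without the libraries that stood apart. In the female EDL tendon all 82 genes lay below 0 (median -0.25) and 1 fell, Ndufa4l2, against 0.766% of all genes.

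Among the libraries labelled ovary, where 3 of 5 fibroblast markers also fell and their part was not tested, 21 of 81 genes fell and none rose (median -0.25), against 5.79% of all genes. Cycs had 22.2, 32.3 and 48.4 CPM in Deficient and 42.6, 54.2 and 75.6 CPM in Control libraries (-0.83 ± 0.15, adjusted p = 0.013), with overlap. Ndufa1, a complex I subunit, had 30.6, 38.4 and 51.8 CPM in Deficient and 51.5, 58.2 and 70.7 CPM in Control libraries (-0.68 ± 0.12). Without the libraries in which Cyp19a1 was counted, 13 of 79 genes fell and 1 rose, while 9.73% of all genes fell. With only the libraries in which it was counted (2 Deficient, 3 Control), edgeR called none of 81, with 10 at an unadjusted p under 0.05, and no gene of any kind fell. The median was -0.27 and -0.19 in these fits. Cycs changed by -0.98 (adjusted p = 0.015) and Ndufa1 by -0.74 (adjusted p = 0.012) without the libraries in which Cyp19a1 was counted. With only those libraries the values were -0.67 (adjusted p = 0.44) for Cycs and -0.38 (adjusted p = 0.45) for Ndufa1. Leaving out single libraries gave 4 to 28 falls: 4 without Deficient ZT05 replicate 1 or Deficient ZT17 replicate 1, 5 and 6 without the third replicate of Control ZT17 and of Deficient ZT17, 9 without Control ZT17 replicate 1 or Deficient ZT17 replicate 2, 11 without Control ZT05 replicate 3, and 12 without Control ZT17 replicate 2 or Deficient ZT05 replicate 3. Without any 1 replicate number the count was 0, and with no filter on low counts it was 13.

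Female spleen had 14 falls of 80 and no rise (median -0.19), against 6.65% of all genes. Cox7b had 76.7, 92.0 and 101 CPM in Deficient and 93.5, 107 and 124 CPM in Control spleens (-0.37 ± 0.07), with overlap. Cox6b2, the testis form, had 0.957, 1.94 and 2.52 CPM in Deficient and 2.60, 3.87 and 8.60 CPM in Control spleens, without overlap (-1.65 ± 0.35). All 4 erythroid markers fell, at 175 to 759 CPM in Deficient and 1515 to 14490 CPM in Control spleens, and their part was not tested. The count was 4 to 7 without any of 7 libraries, which were Control ZT05 replicates 1 and 3, Control ZT17 replicates 1 and 3, Deficient ZT05 replicate 2 and Deficient ZT17 replicates 1 and 3. It was 1 with both sexes in 1 fit and 0 without replicate number 1 or 3.

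In female pituitary 5 of 80 genes fell (median -0.34), against 2.04% of all genes, among them Ndufa1 at 44.0, 49.7 and 62.5 CPM in Deficient and 62.4, 70.0 and 77.6 CPM in Control pituitaries (-0.75 ± 0.09, adjusted p = 0.0085), which overlapped slightly. Control ZT17 replicate 1 held up to 382.9 CPM of skeletal fibre markers and the highest sum, 11308 CPM, and without it 17 genes fell. Without Control ZT17 replicate 2 the count was 8, and without any other library but Control ZT05 replicate 3 it was 1 to 3. DESeq2 called 17, and without replicate number 2 or 3 edgeR called 0. In plain CPM the median sum was higher in Deficient pituitaries, at 5941 CPM against 5387 CPM in Control pituitaries, opposite to the TMM-scaled median.

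Brown adipose tissue and heart, the tissues with the highest levels in females, had overlapping sums in the 2 arms. Brown adipose sums were 60214, 63496 and 68721 CPM in Deficient and 56756, 62313 and 70164 CPM in Control females, and edgeR called none of 82 genes, with 9 at an unadjusted p under 0.05, while the 3 rRNA-like genes rose there. Heart sums were 49265, 51834 and 55812 CPM in Deficient and 49653, 52309 and 60118 CPM in Control females. Cycs alone fell in heart, where 8.32% of all genes fell, with 560, 654 and 694 CPM in Deficient and 705, 809 and 944 CPM in Control females, and the groups did not overlap (-0.33 ± 0.09, adjusted p = 0.025). The adrenal gland had no call, while 73 of 82 genes in females and 77 of 81 in males lay above 0 (medians 0.19 and 0.24), with 0 and 11 at an unadjusted p under 0.05.

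In liver of females 2 complex I genes fell, Ndufs5 (-0.31 ± 0.07) and Ndufa3 (-0.22 ± 0.07), and Atp5s rose, with 3.67, 5.64 and 8.41 CPM in Deficient and 1.84, 3.87 and 7.32 CPM in Control livers (0.67 ± 0.14), while 7.21% of all genes fell and 6.9% rose. These 3 calls numbered 6 without Deficient ZT05 replicate 1, 0 with both sexes in 1 fit, 5 by DESeq2 or with no filter on low counts, and 0 or 1 without a replicate number. In male liver Ndufb4 fell (-0.85 ± 0.21) and Atp5g3 rose (0.74 ± 0.21), in a tissue where the Deficient range of Atp5g3 was 6.51 to 195 CPM against 21.1 to 76.9 CPM in Control livers and 2.39% of all genes fell and 1.79% rose. In lung of females Ndufa3 fell (-0.32 ± 0.08), against 4.63% of all genes. EdgeR called none of these genes in male heart, lung, spleen, pituitary, quadriceps or testis, with 2, 0, 2, 4, 0 and 14 at an unadjusted p under 0.05. The dispersion fitted to males was 2.948 times that of females in heart, 1.844 in lung, 3.877 in spleen, 1.199 in pituitary and 7.31 in quadriceps. The part of this spread in the lack of calls was not tested.

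Cycs was the gene most often called. It lay below 0 in 16 of 18 female tissues (-1.33 to 0.07) and in 11 of 17 male tissues (-0.96 to 0.39). It fell in 9 female tissues, which were uterus, pituitary, libraries labelled ovary, gastrocnemius, gastrocnemius tendon, EDL, spleen, heart and kidney, and in the male kidney, EDL tendon, soleus and EDL. Atp5j2, a membrane subunit of the ATP synthase, and Ndufc1 followed in females with 6 tissues each. Cox7a1, Ndufc1, Atp5j and Ndufs8, an iron-sulfur subunit of complex I, fell in 4 male tissues each.

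**Figure D5:**
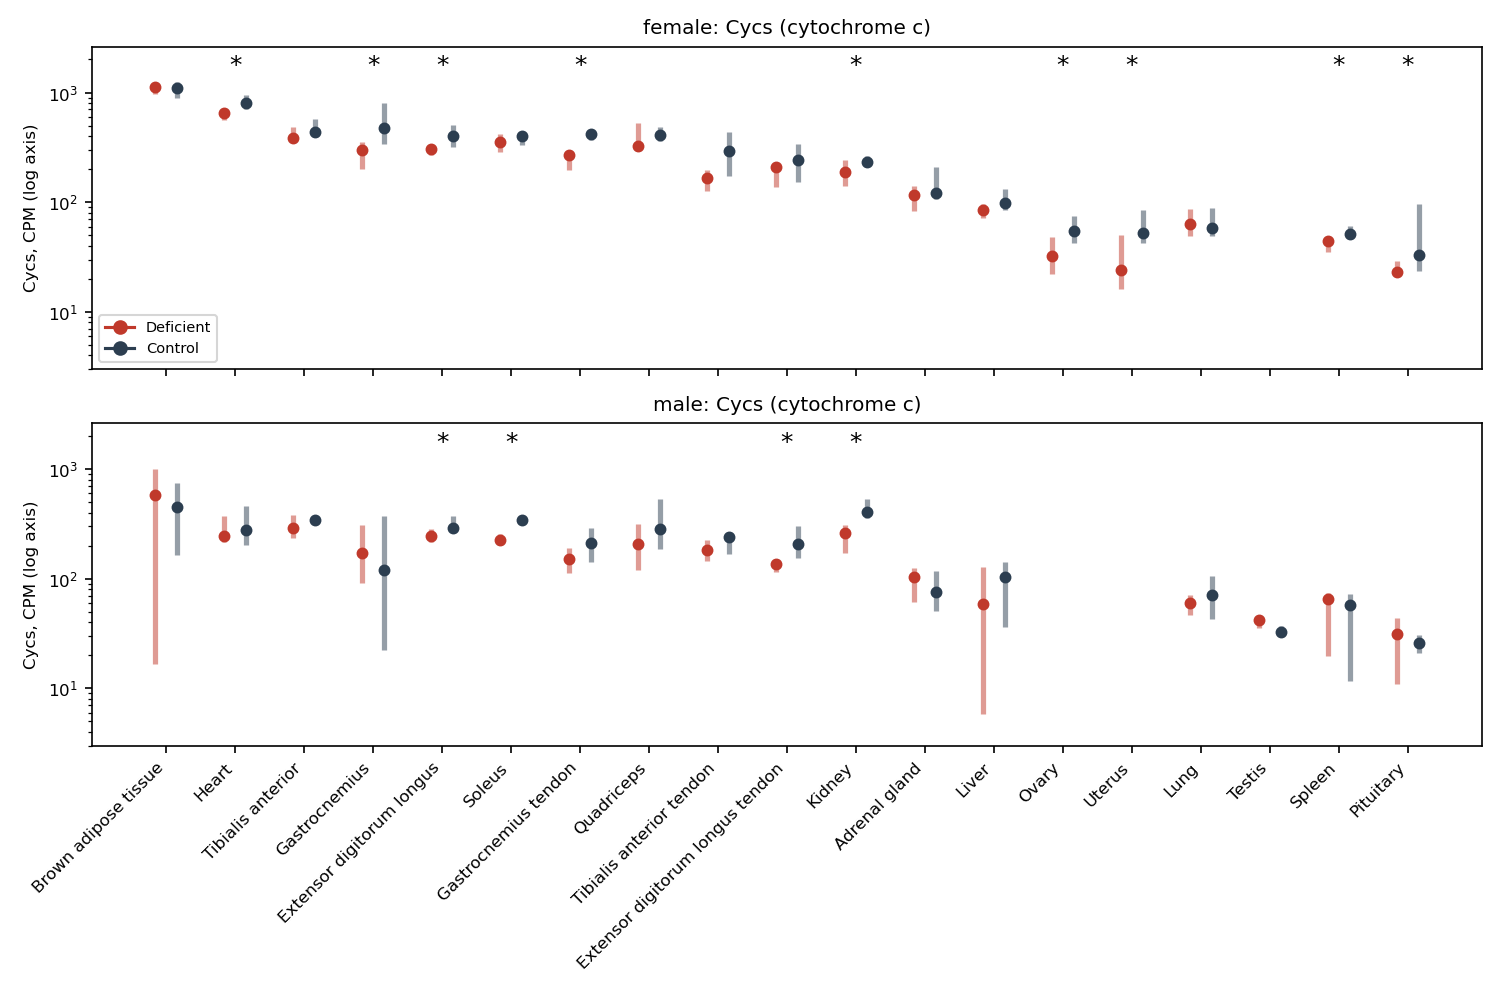
Cycs in every tissue by sex: points are medians and bars the lowest to highest library of Deficient and Control mice (CPM, log axis), and an asterisk marks a fall with adjusted p under 0.05. Asterisks stand over 9 female and 4 male tissues, and the Deficient median lies below the Control median under each of them.

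Pooled over tissues, each complex had falls in both sexes. In females 9.21% of complex I pairs fell, 11.1% of complex II, 12.5% of complex III, 11.2% of complex IV and 14.2% of complex V, against 7.42% of all genes. In males the shares were 11.1%, 19.1%, 14.7%, 8.25% and 11.4% in the same order, against 2.41% of all genes. Uterus alone held 29 of the 58 female falls in complex I, 3 of 8 in II, 8 of 18 in III, 12 of 35 in IV and 15 of 41 in V. The male falls came almost wholly from kidney, soleus, EDL and EDL tendon, which were taken from the second set alone. The pooled shares therefore do not describe a typical tissue. All 4 female rises were in complex V, where Atp5g2 rose in 2 tissues and Atp5s and Atp5l in 1 each.

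The other genes of mitochondrial respiration were read from lists of the tricarboxylic acid cycle (13 genes), assembly factors (40 genes) and regulators of mitochondrial biogenesis (13 genes), tested in the same fits. Over female tissues 26 of 234 cycle pairs fell and 3 rose, and over male tissues 31 of 221 fell and none rose, where 7.42% of all female and 2.41% of all male pairs fell. Assembly factors fell in 86 and rose in 6 of 720 female pairs, and fell in 51 and rose in 1 of 669 male pairs. In uterus 8 of 13 cycle genes fell (median -0.40), such as Mdh2, mitochondrial malate dehydrogenase (-0.73 ± 0.13), and Cs, citrate synthase (-0.61 ± 0.13). There 16 of 40 assembly factors fell, in a tissue where 23.3% of all genes did, led by Uqcc2 of complex III (-1.46 ± 0.23).

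In male kidney 7 of 13 cycle genes and 19 of 40 assembly factors fell (18.5% of all genes), and Cox17, the copper chaperone of complex IV, rose (0.83 ± 0.23). In male soleus 9 cycle genes and 13 assembly factors fell (6.05% of all genes), in male EDL 7 and 8 (6.12%), in male EDL tendon 7 and 9 (2.94%), and in female EDL 5 and 12 (15.1%), with 1 assembly factor rising. Female heart, where Cycs alone fell among the 84 genes, had 14 of 40 assembly factors fall, against 8.32% of all genes, such as Ndufaf4 (-0.43 ± 0.06). Its 3 rRNA-like genes fell as well, by 2.35 to 2.67 on the log2 scale.

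Regulators of biogenesis moved in both directions. Over female tissues 21 of 230 pairs rose and 6 fell, and over male tissues 2 of 216 rose and 4 fell, where 6.83% of all female and 2.33% of all male pairs rose. In uterus Ppargc1a, the coactivator PGC-1alpha, rose (1.49 ± 0.33, adjusted p = 0.0038) while Esrra, the receptor ERR-alpha, fell (-1.45 ± 0.18, adjusted p = 0.000283). In male kidney Ppargc1a rose (0.66 ± 0.13) and Esrra fell (-0.48 ± 0.10). Esrra also fell in male EDL tendon (-0.47 ± 0.12), and in male soleus Perm1, a muscle regulator acting with these factors, fell (-0.57 ± 0.10) with Tfam, which packages mitochondrial DNA (-0.23 ± 0.06). In female heart Ppargc1a (0.69 ± 0.19) and Nrf1 (0.29 ± 0.08) rose.

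The 13 respiratory genes of mitochondrial DNA were tested in a fit that kept them. In male soleus 8 fell with the nuclear genes, from mt-Nd4 (-0.34 ± 0.09) to mt-Nd2 (-0.46 ± 0.09). In uterus mt-Nd6 alone fell (-0.63 ± 0.22), and in male kidney edgeR called none. In female tibialis anterior 5 rose, led by mt-Nd5 (0.43 ± 0.08). In male liver 7 fell, by 1.01 to 1.64 on the log2 scale. Every male liver library stood apart by composition. Mitochondrially encoded genes took 76.4% to 93.25% of the counts in Control and 21.8% to 86.6% in Deficient male livers. The part of library composition in these liver falls was not tested. Poly(A) selection keeps mitochondrial transcripts unevenly, so the log2 changes of the 13 genes are relative within this library type.

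Time of day moved few of the genes. In females 10 pairs rose and 4 fell at ZT17 relative to ZT05 of 1465 (0.683% and 0.273%), against 3.31% and 3.46% of all genes. In males edgeR called none of 1379 pairs, with 81 at an unadjusted p under 0.05 and 1 call by DESeq2, against 0.506% and 0.397% of all genes. The largest change was Atp5s in female liver, with 1.84, 2.79 and 5.22 CPM at ZT17 and 5.82, 7.14 and 8.41 CPM at ZT05, without overlap (-1.26 ± 0.14, adjusted p = 0.000133). In female brown adipose tissue Atp5s went the other way, with 13.9, 21.1 and 24.2 CPM at ZT17 and 11.1, 12.5 and 17.1 CPM at ZT05 (0.56 ± 0.12), with overlap.

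Cox4i2 fell at ZT17 in 3 female muscles and rose in lung. In tibialis anterior it had 1.995, 2.64 and 3.09 CPM at ZT17 and 3.52, 4.40 and 5.01 CPM at ZT05, without overlap (-0.69 ± 0.16). It fell in EDL (-0.60 ± 0.14) and soleus (-0.53 ± 0.16). The time calls of female soleus numbered 4 in all. They were 0 without Control ZT05 replicate 2 or 3, Control ZT17 replicate 1, Deficient ZT05 replicate 1 or Deficient ZT17 replicate 2. They were 1 without Control ZT05 replicate 1, Control ZT17 replicate 2 or Deficient ZT17 replicate 1, and 2 without Deficient ZT05 replicate 2 or Deficient ZT17 replicate 3. With no filter on low counts there was 1. In lung it had 39.9, 46.5 and 51.7 CPM at ZT17 and 26.3, 36.9 and 44.3 CPM at ZT05, with overlap (0.38 ± 0.10). Cycs rose at ZT17 in female kidney, with 192, 237 and 262 CPM at ZT17 and 141, 196 and 233 CPM at ZT05 (0.34 ± 0.08).

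A difference of the response between ZT17 and ZT05 was called in 3 places. In female liver the response of Atp5s was higher at ZT17 by 1.03 ± 0.28, while 4.01% of all genes had such a difference. At ZT17 it had 3.67, 4.38 and 5.22 CPM in Deficient and 1.84, 1.89 and 1.92 CPM in Control livers, and at ZT05 6.07, 7.95 and 8.41 CPM in Deficient and 5.82, 6.96 and 7.32 CPM in Control livers. The arms were apart at ZT17 and overlapped at ZT05. In female kidney Uqcrq differed by -0.94 ± 0.22 (adjusted p = 0.049; 1.37% of all genes), with 72.6, 91.0 and 97.9 CPM in Deficient and 102, 119 and 137 CPM in Control kidneys at ZT17, and 91.2, 93.1 and 118 CPM in Deficient and 59.4, 76.0 and 95.6 CPM in Control kidneys at ZT05. This Uqcrq difference was not called with the rRNA-like genes also removed, nor without the libraries that stood apart.

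In male brown adipose tissue the response was higher at ZT17 than at ZT05 for 26 of 81 genes, against 4.44% of all genes. At ZT17 the sums ran from 38754 to 64688 CPM in Deficient and from 12495 to 31450 CPM in Control libraries, without overlap. At ZT05 they were 1036, 30178 and 36370 CPM in Deficient and 31505, 47171 and 48199 CPM in Control libraries. Ndufa1 had 283, 300.1 and 320 CPM in Deficient and 51.8, 109 and 118 CPM in Control libraries at ZT17, and 4.08, 56.2 and 85.7 CPM in Deficient and 208, 276 and 362 CPM in Control libraries at ZT05 (3.61 ± 0.49, adjusted p = 0.000492). The groups were apart at both times, in opposite directions.

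The composition of those male brown adipose libraries varied widely. Mitochondrially encoded genes took 27.6% to 94.2% of their counts, and the Deficient ZT05 library with the lowest sum held 92.8% rRNA-like counts. The Deficient ZT17 library with the highest sum was the only 1 from the second set of males, and the only 1 that did not stand apart. The separation at ZT17 is therefore not wholly a comparison within 1 set. The count of 26 was 14 without Control ZT05 replicate 1 or 2 and 13 without Control ZT17 replicate 1, it was 46 with both sexes in 1 fit and 1 to 21 without a replicate number, and the fit cannot be made without all libraries that stood apart. The part of library composition in this difference was not tested, and no such difference was called in female brown adipose tissue, although the difference between the sexes in it was not tested.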

How the data were processed

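Bulk poly(A) RNA (TRIzol extraction, stranded mRNA libraries) was measured in the groups given in the report. The authors deposited 1 table of raw read counts per gene and library, with no normalization; 0 of its columns could not be assigned to a library. Per the submitters' processing notes the tools were STAR 2.7.10a, cutadapt 4.1, DESeq2 1.34.0 and FastQC 0.11.9, and the build GRCm38 (mm10); the counting program and annotation are not given in the sources used here.

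From these counts, CPM were computed without mitochondrially encoded genes. Each sex was fitted alone in each tissue with edgeR 4.0.16 (limma 3.58.1, R 4.3.3): TMM scaling, filterByExpr (minimum count 10, minimum total 15), 1 mean per treatment and time, and the quasi-likelihood test, with Benjamini-Hochberg adjustment over all genes tested and a threshold of 0.05. The sex difference was a contrast in a fit of both sexes. DESeq2 1.42.0, other filters and scalings, a replicate block, a fit of both sexes and leaving out libraries were alternatives. The tests were tested on simulated data. Gene positions and exon lengths come from GRCm38 (GENCODE M21) and promoters from RefSeq. The rule for named genes took the tissue-restricted isoforms with their counterparts, the Atp5g and Sdh genes and Cycs, the genes called in most tissues, the 3 largest rises and falls in each comparison with 3 or more calls, called genes against the main direction, the 2 of smallest p for the interaction and the sex difference, and up to 4 called genes of each other list. Some further members were chosen after their values were seen, as examples of a complex or of genes that did not pass. Members, lists and tests were chosen with earlier results of these data known. Reads of processed pseudogenes and of overlapping genes could be shared with these genes, so single values are uncertain to that extent.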

Additional observations from a re-analysis of the deposited data

Results flagged for a closer look

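In 8 of 70 arms of a tissue, sex and treatment (5 female, 3 male) the summed level of the 84 genes had a library far from the others, where chance gives about 1 in 20. The gap to the nearest library, as a share of the arm's whole range, was 0.717 in female Control heart (ZT05 replicate 1 at 60118 CPM, nearest 52611 CPM) and 0.679 in male Control heart (ZT05 replicate 2 at 35860 CPM, nearest 24882 CPM). It was 0.707 in female Deficient kidney, where ZT05 replicate 1 was low at 18259 CPM (nearest 22888 CPM) and held 22.3% rRNA-like counts. It was 0.669 in male Control liver (ZT17 replicate 2 low at 3230 CPM, nearest 8075 CPM) and 0.926 in female Control pituitary (ZT17 replicate 1 at 11308 CPM, nearest 5635 CPM). In spleen it was 0.634 in female Control (ZT17 replicate 1 at 7690 CPM, nearest 6538 CPM) and 0.765 in male Deficient libraries (ZT17 replicate 1 low at 3336 CPM, nearest 8857 CPM). In Deficient uterus it was 0.639 (ZT05 replicate 1 at 8413 CPM, nearest 7196 CPM).

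The response differed between the sexes in kidney for 26 genes, with female minus male differences of 0.77 for Ndufa13 and 0.60 for Ndufv3 on the log2 scale. The response differed between the times in male brown adipose tissue for 26 genes, with ZT17 minus ZT05 differences of 3.61 for Ndufa1 and 2.73 for Atp5o. Such a difference was also called for Uqcrq in female kidney (-0.94) and Atp5s in female liver (1.03).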

How the results depend on the processing

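With DESeq2 in place of edgeR the calls numbered 307 for the female response (173 with edgeR), 38 for the female time difference (14), 1 for the male time difference (0), 56 for the difference of the response between times (28) and 60 for the sex difference (26). With no filter on low counts they were 23, 35 and 84 for the female time difference, the male time difference and the difference between times. With both sexes in 1 fit the male time difference had 9 calls and the difference between times 58. Without the libraries that stood apart, an alternative chosen after seeing the data, the difference between times had 1. Of the 28 calls 26 lie in male brown adipose tissue, which could not be fitted without these libraries, and Uqcrq in female kidney was no longer called. The highest tissue mean of Control libraries was 6.61 times the lowest, and 9.84 times in females alone, with brown adipose tissue highest in both. It was 4.41 times in males alone and 5.25 times with mitochondrially encoded genes kept, with soleus highest in both. The cause of the other changes was not tested. The female response had 182 calls with both sexes in 1 fit, a total that hides opposite shifts, with 1 in spleen (14 in females alone), 0 in gastrocnemius tendon (10) and 59 in tibialis anterior tendon (0). The other alternatives kept the male response between 154 and 217 calls (161 by edgeR). Among them, a term for the set gave 161, fitted only where a tissue mixed both sets. Leaving out the libraries that stood apart gave 159 over 10 fits, as the rest could not be made. These 2 alternatives left kidney, soleus, EDL and EDL tendon as they were, so they could hardly move the male count.

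Leaving out 1 replicate number everywhere gave 62 to 123 female and 61 to 70 male response calls, 3 to 7 and 0 to 5 time calls, 1 to 21 for the difference between times, 1 to 14 for the sex difference and a ratio of levels of 6.41 to 6.87. Leaving out 1 library gave 156 to 234, 137 to 199, 10 to 28, 0 to 18, 15 to 33 and 16 to 36 calls in the same order. These fits have fewer samples. Of 76 values of named genes, 13 kept their call under every alternative and 0 reversed.

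With a replicate block the calls were 161 for the female and 171 for the male response, 12 and 0 for time, 29 for the difference between times and 23 for the sex difference. By tissue it gave 3 in female gastrocnemius (9 without it), 10 in the libraries labelled ovary (21), 3 in female pituitary (5), 6 in female liver (3) and 1 for time in female soleus (4). The mean correlation of same-numbered samples ran from -0.10 to 0.22 over the tissues and sexes. It was highest in male gastrocnemius, at 0.22 against -0.11 for samples of other numbers, and in female adrenal gland, at 0.20 against -0.10. Such means show no pairing common to all tissues but cannot exclude it in single ones. The shallowest library had 474811 nuclear counts, and genes at a few CPM rest on few reads there.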
